A study of Mus musculus with 4 samples.

Results

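The genes described here encode 3 families of transcription factors that were followed through the m6A maps of CHAPIR-treated and control mouse hearts: the BTB zinc finger genes (symbols Zbtb and a number), the Krüppel-like factor genes (Klf and a number) and the forkhead genes (Fox, a letter and a number). All genes with such a symbol in either of the deposited peak lists were taken, whatever their values. They were 44 of the 6653 genes with a peak, made up of 23 Zbtb, 8 Klf and 13 Fox genes. The symbol rule also took Zbtb8os, a neighbour of a Zbtb gene that encodes the tRNA ligase cofactor archease, and Foxo6os, a noncoding RNA antisense to Foxo6.

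N6-methyladenosine (m6A) was mapped by MeRIP-seq, in which mRNA is broken into short fragments, fragments with the mark are collected with an antibody and sequenced, and unselected input RNA is sequenced beside them. The CHAPIR group was C57BL/6 mice given a synthetic copy (mimic) of the PIWI-interacting RNA CHAPIR at 30 mg/kg from an osmotic minipump implanted for 14 days, and whole hearts were labelled 2 weeks. The NC group was C57BL/6 mice given a mimic of scrambled sequence in the same way, and the labels state a dose for the CHAPIR mimic only. Each condition had 1 immunoprecipitated and 1 input library, the number of mice behind a library is given in none of the sources used here, and CHAPIR levels in these hearts were not analysed here. With no replicate the spread between animals is unknown, no test between the conditions could be made, and every difference below is one between these libraries.

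BTB zinc finger proteins pair through their BTB domain, which also recruits corepressors, and bind DNA through zinc fingers. Krüppel-like factors bind GC-rich and CACCC elements through zinc fingers near their C-terminus, and forkhead proteins bind DNA through a winged helix fold. In heart muscle KLF15 is known as a brake on hypertrophic growth and a regulator of lipid and amino acid use, and FOXO factors, held in the cytoplasm by insulin and AKT signalling, switch on genes of protein breakdown and autophagy. m6A on mRNA is deposited within the DRACH motif, is densest around stop codons and in long internal exons, and bears on how fast an mRNA is degraded and translated.

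The CHAPIR list held 16562 lines on 4572 genes and the NC list 23155 lines on 5638 genes, each line being 1 peak on 1 transcript. The members took 88 lines on 29 genes in the CHAPIR list and 161 lines on 42 genes in the NC list. Their median fold enrichment, the authors' value for signal in a peak after immunoprecipitation divided by that in input, was 4.61 in the CHAPIR list and 4.02 in the NC list, against 3.86 and 3.49 over all lines of those lists. Folds were not scaled between the lists and are used here to describe a peak within its own list. The read depth is unknown, so a gene outside a list is one with no peak past the authors' threshold there, and in whole heart fewer cells of a type and less RNA per cell cannot be told apart. Cardiomyocyte markers had peaks in both lists for Myh6, Tnnt2, Ryr2 and Ttn and in the CHAPIR list only for Actc1. Among markers of other cells, 4 of 6 macrophage genes (Cd74, C1qb, C1qc and Lyz2) were in the CHAPIR list only and all 4 adipocyte genes (Adipoq, Plin1, Cfd and Cidea) in the NC list only. Endothelial markers were in both lists for 4 of 5 and fibroblast markers for 3 of 4, with Tie1 and Dcn in the CHAPIR list only. The part of such cells in the counts below was not tested.

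A peak was present in both lists for 27 of the 44 genes, 61.4% with a 95% Wilson interval of 46.62 to 74.28%, while 53.5% of all genes with a peak were in both. The CHAPIR list alone held 2 members, Foxn2 and Zbtb25, which is 4.55% (1.256 to 15.13%) against 15.3% of all genes. The NC list alone held 15, which is 34.1% (21.88 to 48.86%) against 31.3% of all genes, a share near that background. These 15 were Foxk1, Foxk2, Foxo6, Foxo6os, Zbtb1, Zbtb2, Zbtb8os, Zbtb9, Zbtb12, Zbtb14, Zbtb17, Zbtb42, Zbtb43, Zbtb46 and Zbtb48. Intervals cover counting error only and take genes as independent.

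The families were also counted apart over these classes. All 8 Klf genes (Klf2, Klf3, Klf4, Klf6, Klf7, Klf9, Klf13 and Klf15) had peaks in both lists. The interval of that share was 67.56 to 100%, against 53.5% of all genes. Of the 13 Fox genes, 8 were in both lists (61.5%, 35.52 to 82.29%), 1 in the CHAPIR list only (7.69%) and 4 in the NC list only (30.8%, 12.68 to 57.63%). The shares of all genes were 53.5%, 15.3% and 31.3%, so the Fox share in the NC list only was near that background. Of the 23 Zbtb genes, 11 were in both, 1 in the CHAPIR list only and 11 in the NC list only, and the interval of that last share (47.8%, 29.24 to 67.04%) includes the 31.3% of all genes.

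**Figure D1:**
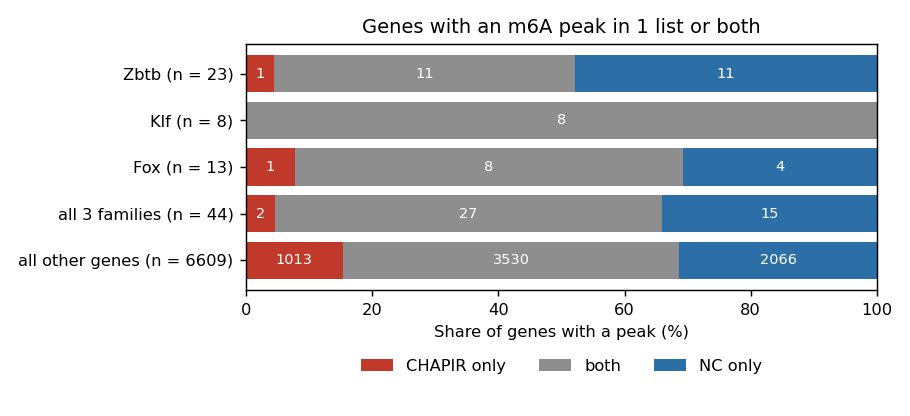
Share of genes (%) whose peaks were in the CHAPIR list only, in both lists or in the NC list only, for each family, for the 44 genes together and for the 6609 other genes with a peak, with counts inside the bars. The Klf bar is 8 genes in both lists, and the 15 NC only members (34.1%) stand beside 31.3% of the other genes.

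The NC list was the longer one, and the classes shifted when the lists were given equal length. For this the NC list was cut to the length of the CHAPIR list by FDR, the false discovery rate that the authors gave each peak. The CHAPIR list was kept whole. The cut NC list covered fewer genes than it, with 1368 of all genes in the CHAPIR list only and 1111 in the NC list only. At that length 37 members remained, with 24 in both lists, 64.9% against 56.4% of all genes. Then 5 were in the CHAPIR list only (Foxn2, Foxp2, Klf3, Klf7 and Zbtb25), 13.5% against 24.1% of all genes, and 8 in the NC list only, 21.6% against 19.5%. With peaks of an FDR at or under 1e-05 kept, 17 of 33 members were in both, 51.5% against 51.6%, 4 (Foxo1, Klf3, Klf7 and Zbtb7b) were in the CHAPIR list only, 12.1% against 18.4%, and 12 were in the NC list only, 36.4% against 30.0%. With a fold of at least 4, 16 of 42 members were in both lists, 38.1% against 36.6%, 7 were in the CHAPIR list only, 16.7% against 29.7%, and 19 were in the NC list only, 45.2% against 33.7%. The statement that all 8 Klf genes were shared thus holds at the authors' threshold and not under these settings. Klf3 and Klf7 were in the CHAPIR list only under all 3 settings, and at a fold of at least 4 so was Klf2, while Klf6 had no such peak and Klf4, Klf9, Klf13 and Klf15 were shared.

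Of the mouse gene symbols in RefSeq that fit the rule, 44 of 106 had a peak. The share was 54.8% for Zbtb (23 of 42), 47.1% for Klf (8 of 17) and 27.7% for Fox (13 of 47), and it was 27.8% over all protein-coding symbols. Genes listed nowhere included Klf5, Klf10, Klf11 and Klf12, Foxj2, Zbtb7c, Zbtb33, which encodes the methyl-DNA reader Kaiso, and many forkhead genes of the embryo such as Foxa1 and Foxd1. No expression values were used here, and whether genes with no peak were transcribed in these hearts was not tested.

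Among the Krüppel-like factors Klf9, a glucocorticoid-induced gene, had the smallest FDR of all member peaks. Its peak covered 989 exonic bases across the end of the coding sequence and the 3′ UTR in the CHAPIR list (chr19:23164876-23165864, GRCm38, plus strand), at a fold of 9.68 and an FDR of 2e-100. The NC peak at the same place was 959 bases long at a fold of 7.51 and an FDR of 1.26e-29. The NC list had a further Klf9 peak of 151 bases in the coding sequence, at a fold of 2.03 and an FDR of 0.000135.

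Klf15 had its single site in the coding sequence in both lists. The CHAPIR peak (chr6:90466833-90467088, plus strand) was 256 bases long at a fold of 5.7 and an FDR of 2.51e-16, and it lay wholly inside the NC peak of 570 bases, with a fold of 6.95 and an FDR of 1.58e-44. Klf13, a partner of GATA4 in heart development, had instead a long 3′ UTR peak. It was 1196 bases long in the CHAPIR list (chr7:63890266-63891461, minus strand; fold 11.6, FDR 1e-26) and 987 bases long in the NC list (fold 9.08, FDR 7.94e-29).

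Klf2 and Klf4 are known for their induction by blood flow in endothelium. The leading Klf2 peak was placed in the 3′ UTR in the CHAPIR list (chr8:72320941-72321448, plus strand), with 508 bases, a fold of 3.74 and an FDR of 2e-41. In the NC list it began earlier, reached the coding sequence and had 477 bases, a fold of 3.28 and an FDR of 1.26e-21. Klf2 also had 2 coding sequence sites in the CHAPIR list (folds 3.35 and 5.05) and 1 in the NC list (fold 2.68). The leading Klf4 peaks ended at the same base and were 540 bases in the CHAPIR list (chr4:55527593-55528132, minus strand; fold 7.18, FDR 7.94e-43) and 480 bases in the NC list (fold 7.96, FDR 3.16e-26). The CHAPIR list alone had a Klf4 coding sequence site of 273 bases, at a fold of 8.74 and an FDR of 1.7e-07, and no NC site overlapped it.

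Klf6, Klf3 and Klf7 had larger best-peak FDRs than the other Klf genes in both lists. Klf6, an injury-response gene, had a 3′ UTR peak with a fold of 3.37 and an FDR of 6.31e-11 in the CHAPIR list (chr13:5867638-5867878, plus strand) and a fold of 3.49 and an FDR of 3.16e-13 in the NC list. A second Klf6 site was shared at folds of 2.21 in the CHAPIR list and 2.13 in the NC list. Klf3, a repressor that works with CtBP, had folds of 4.54 in the CHAPIR list (chr5:64829040-64829411, plus strand; FDR 2e-11) and 2.62 in the NC list (FDR 0.00049), at the end of the coding sequence and in the 3′ UTR. Klf7 had folds of 12.0 in the CHAPIR list (chr1:64035492-64035701, minus strand; FDR 3.31e-09) and 2.65 in the NC list (FDR 0.000776). In the NC list Klf3 and Klf7 thus had the 2 largest best-peak FDRs among the Klf genes, and in the CHAPIR list Klf7 had the highest best-peak fold among them.

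**Figure D2:**
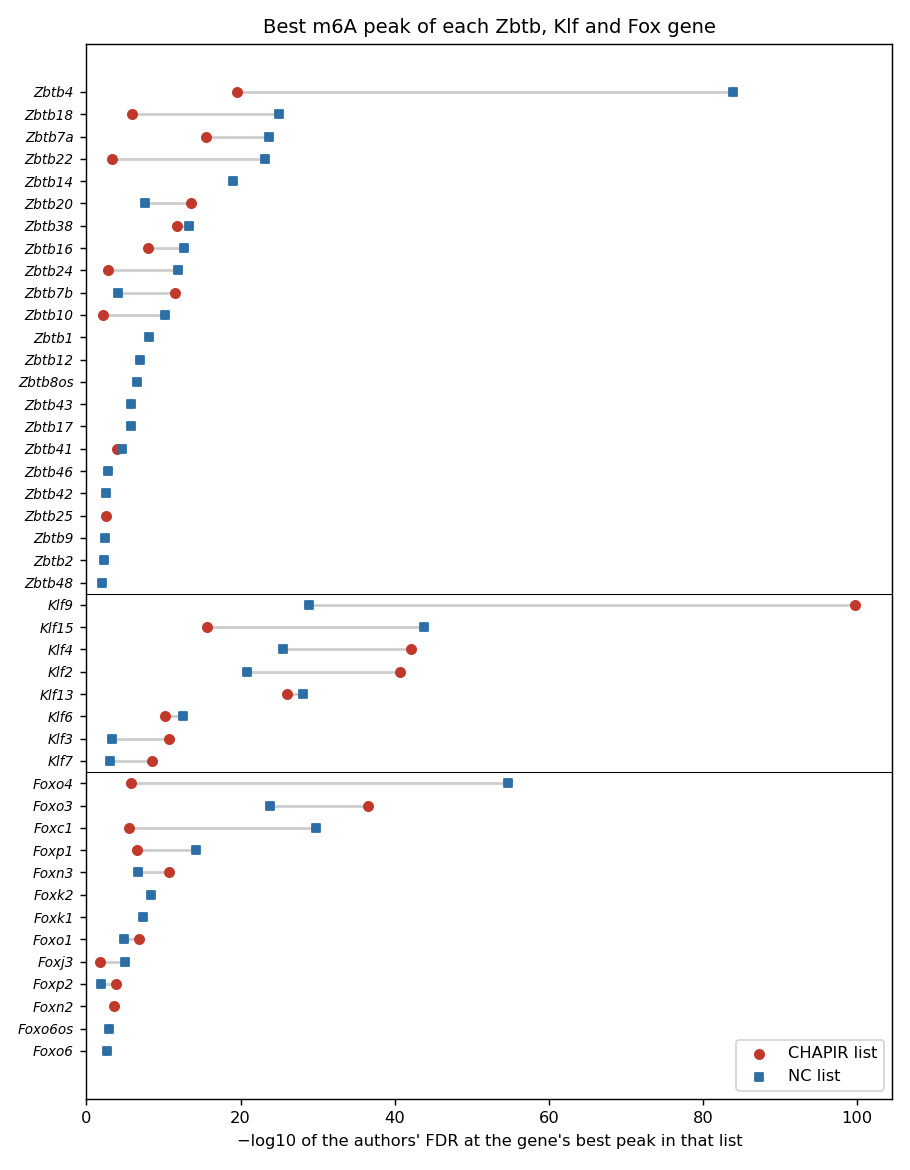
The −log10 of the authors' FDR at each gene's best peak, in the CHAPIR list (circles) and the NC list (squares), by family, with a grey line between the values of a gene in both lists. Klf9 at 2e-100 in the CHAPIR list and Zbtb4 at 1.26e-84 in the NC list lie farthest right, and 15 genes have a square alone.

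The smallest FDR of a forkhead gene belonged to a FOXO gene in each list, Foxo3 in the CHAPIR list and Foxo4 in the NC list. The leading Foxo3 site spanned an exon junction from the coding sequence into the 3′ UTR in both lists. It had 691 exonic bases, a fold of 6.81 and an FDR of 3.16e-37 in the CHAPIR list (chr10:42185875-42196735, minus strand), and 590 bases, a fold of 4.94 and an FDR of 1.58e-24 in the NC list. A 3′ UTR site was also shared, with folds of 3.59 in the CHAPIR list and 3.18 in the NC list. Each list had 1 Foxo3 site of its own, a 3′ UTR site at a fold of 2.6 in the CHAPIR list and a coding sequence site at a fold of 2.74 in the NC list.

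The NC only coding sequence site of Foxo3 (chr10:42275014-42275207, minus strand, FDR 0.000151) is the longest stretch of a member's peak that the RefSeq sequence tables used here hold. Its 46 bases that lie inside the table window of the neighbouring gene Gm38485 (chr10:42275014-42275059, GRCm38.p6, 5′ to 3′ on the minus strand) are shown to let the sequence under a peak be seen.
Foxo3: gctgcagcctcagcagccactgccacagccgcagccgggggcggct
These bases held 0 matches to DRACH, the motif in which m6A is made. The rest of the site lies outside the window and was not analysed here, so this says nothing of where in the site the mark would be.

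Foxo4 and Foxo1 differed more between the lists. The Foxo4 site at the start of the coding sequence had 186 bases, a fold of 3.16 and an FDR of 1.48e-06 in the CHAPIR list (chrX:101254647-101254832, plus strand), inside an NC site of 758 bases with a fold of 9.01 and an FDR of 2e-55. The NC list alone had a Foxo4 3′ UTR site of 627 bases (fold 3.38, FDR 5.01e-12). In Foxo1 the leading CHAPIR peak (chr3:52345631-52345811, plus strand; fold 3.8, FDR 1.38e-07) lay in the coding sequence and shared 31 bases with an NC peak of 61 bases at a fold of 2.52. The leading NC peak of Foxo1 lay downstream across the stop codon, at a fold of 5.47 and an FDR of 1.17e-05, and no CHAPIR site overlapped it. Foxo6 was in the NC list only, with 1 coding sequence peak of 149 bases (chr4:120286993-120287141, minus strand; fold 13.9, FDR 0.00214), as was its antisense RNA Foxo6os (chr4:120302375-120302583, plus strand; fold 5.36, FDR 0.00135). The authors' use of read strand is given in none of the sources used here. These 2 peaks do not overlap, and whether reads of 1 of these genes were counted for the other was not tested.

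Foxc1, a gene of eye and vessel development, had the highest fold among members in the CHAPIR list. Its 5′ UTR and coding sequence peak was 211 bases long at a fold of 27.0 and an FDR of 3.31e-06 in the CHAPIR list (chr13:31807052-31807262, plus strand), and 360 bases long at a fold of 45.6 and an FDR of 1.58e-30 in the NC list. The CHAPIR list had a further Foxc1 peak in the 3′ UTR (361 bases, fold 5.07, FDR 6.76e-06) that the NC list lacked. Foxp1, a regulator of cardiac and lymphoid development, had 1 site over its stop codon in both lists. It was 239 bases in the CHAPIR list (chr6:98929912-98930150, minus strand; fold 4.4, FDR 3.16e-07) and 402 bases in the NC list (fold 6.79, FDR 6.31e-15).

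Foxn3, a checkpoint gene, had 1 site in the CHAPIR list and 4 in the NC list. The 3′ UTR site they shared had a fold of 5.9 and an FDR of 2e-11 in the CHAPIR list (chr12:99190078-99190318, minus strand) and a fold of 2.68 and an FDR of 0.00102 in the NC list, and the leading NC site lay over the stop codon (fold 3.88, FDR 1.78e-07). Foxp2 had 1 shared site, with folds of 20.8 in the CHAPIR list (chr6:15438059-15438276, plus strand; FDR 0.000151) and 9.65 in the NC list (FDR 0.0135). Foxj3, which activates Mef2c in muscle, had no shared site, with a coding sequence peak of 61 bases in the CHAPIR list (chr4:119620236-119620296, plus strand; fold 2.31, FDR 0.0158) and 3′ UTR peaks in the NC list (leading fold 3.52, FDR 9.77e-06). Foxj3 had the largest best-peak FDR of the forkhead genes in the CHAPIR list, and Foxp2 had it in the NC list.

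Foxk1 and Foxk2, related repressors of autophagy genes in muscle, were both in the NC list only and both in the 3′ UTR. Foxk1 had 2 sites, the leading one (chr5:142457242-142457482, plus strand) at a fold of 7.06 and an FDR of 5.25e-08. Foxk2 had 1 site (chr11:121306963-121307143, plus strand) at a fold of 7.51 and an FDR of 4.27e-09. Both stayed in the NC list only at equal list length and at an FDR at or under 1e-05. Foxn2 was in the CHAPIR list only, with a site of 203 bases at the stop codon (chr17:88486862-88487064, plus strand; fold 6.03, FDR 0.00024). No NC peak was listed for it, and its FDR did not reach 1e-05.

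Among BTB zinc finger genes Zbtb4, which encodes a reader of methylated DNA, had the smallest FDR in both lists. Its main site, at the end of the coding sequence, had 369 bases in the CHAPIR list (chr11:69778385-69778753, plus strand; fold 7.8, FDR 2.51e-20) and 868 bases in the NC list (fold 21.2, FDR 1.26e-84). The CHAPIR list had 2 more Zbtb4 sites, a 5′ UTR peak of 90 bases (fold 13.5, FDR 0.00794) and a 3′ UTR peak of 61 bases (fold 2.12, FDR 0.00813). Both are short peaks of large FDR for this list, whose largest was 0.0468. Zbtb38, a related reader of methylated DNA, had 3 sites in each list, of which 2 were shared. Its leading site lay in the coding sequence, with a fold of 4.21 and an FDR of 1.58e-12 in the CHAPIR list (chr9:96686068-96686408, minus strand) and a fold of 5.71 and an FDR of 5.01e-14 in the NC list.

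Zbtb7a and Zbtb7b are close relatives with roles in blood cells, Zbtb7a as a repressor of fetal globin and Zbtb7b as the switch of the CD4 T cell lineage. The Zbtb7a site over the stop codon had 433 bases, a fold of 10.1 and an FDR of 3.16e-16 in the CHAPIR list (chr10:81148222-81148654, plus strand), and 511 bases, a fold of 6.29 and an FDR of 2e-24 in the NC list. A Zbtb7a 3′ UTR site was shared too, at folds of 3.33 in the CHAPIR list and 8.15 in the NC list. The NC list had in addition a Zbtb7a coding sequence site (237 bases, fold 3.75, FDR 2.4e-07) with no CHAPIR counterpart, and the CHAPIR list a 3′ UTR site (180 bases, fold 2.96, FDR 0.00457) with no NC counterpart. The Zbtb7b site over the stop codon had 389 bases, a fold of 6.4 and an FDR of 3.16e-12 in the CHAPIR list (chr3:89379433-89379821, minus strand), and 180 bases, a fold of 2.51 and an FDR of 0.000288 in the NC list.

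Zbtb7b also had an NC site at the other end of the mRNA, beginning in the 5′ UTR and running into the coding sequence, with 307 exonic bases and its leading line at a fold of 4.05 and an FDR of 6.92e-05. On some transcripts this site began shortly after a RefSeq start of the gene, and no CHAPIR site overlapped it. The first bases of the site (chr3:89393329-89393342, minus strand) and the DNA just upstream of the start (chr3:89393379-89393628, GRCm38.p6, minus strand) are shown, 5′ to 3′, because this is the peak of a member that lies beside its promoter. These stretches do not adjoin, and the bases between chr3:89393342 and chr3:89393379 are not shown. Capitals mark each GGGCGG, the GC box that Sp and Krüppel-like factors bind.
Zbtb7b upstream: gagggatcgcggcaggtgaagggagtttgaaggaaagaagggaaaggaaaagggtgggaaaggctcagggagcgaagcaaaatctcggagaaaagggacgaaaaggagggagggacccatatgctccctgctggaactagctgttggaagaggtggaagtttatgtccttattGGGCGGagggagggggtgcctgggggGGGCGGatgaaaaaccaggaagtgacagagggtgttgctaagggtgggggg
Zbtb7b site: gagggatgggggga
GGGCGG, read on both strands in the 250 bases before the start, was present for 26 of the 36 members with a RefSeq window (72.2%), for 61.2% of all genes with a peak and for 32.9% of all genes. It was present for 7 of 8 Klf genes (87.5%), 13 of 20 Zbtb genes (65.0%) and 6 of 8 Fox genes (75.0%). CACCC, the other Krüppel-like element, was found for 69.4% of members, 57.1% of genes with a peak and 51.3% of all genes. A match describes these letters and is no evidence of binding, and the median GC content of the windows was 67.6% for members, 60.8% for genes with a peak and 52.0% for all genes.

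The forkhead core GTAAACA was present for 1 of 36 members (2.78%), Klf9, the gene with the leading peak above. The motif was present for 1.94% of genes with a peak and 3.09% of all genes. It is shown with its flanks, in capitals, from chr19:23141096-23141162 (GRCm38.p6, plus strand).
Klf9: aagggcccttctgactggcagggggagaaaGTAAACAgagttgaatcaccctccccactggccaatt
No Klf9 peak of either list lies in these upstream bases, and no binding was measured.

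Zbtb20 and Zbtb16 had several sites or a shared coding sequence site. Zbtb20, a repressor best known from liver and brain, had 3 sites in the CHAPIR list and 6 in the NC list. Its leading CHAPIR site lay in the 3′ UTR (chr16:43619001-43619421, plus strand; 421 bases, fold 6.47, FDR 2.51e-14), and NC sites of 181 bases (fold 2.92) and 481 bases (fold 3.41) overlapped it. The leading NC site lay farther down the 3′ UTR (fold 3.78, FDR 2.4e-08), and the NC list alone had a Zbtb20 coding sequence site (256 bases, fold 2.95, FDR 1.05e-07). Zbtb16, which encodes PLZF, had a shared coding sequence site with a fold of 4.47 and an FDR of 9.77e-09 in the CHAPIR list (chr9:48832046-48832344, minus strand) and a fold of 5.51 and an FDR of 2e-13 in the NC list. A 3′ UTR site of Zbtb16 was in the NC list alone (fold 2.63, FDR 0.000155).

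The widest contrast of any shared site was in Zbtb22. The CHAPIR peak had 60 bases in the coding sequence (chr17:33918553-33918612, plus strand; fold 10.9, FDR 0.000447), inside an NC peak of 1217 bases that ran into the 3′ UTR (fold 9.42, FDR 6.31e-24). Zbtb18, a repressor of neuronal differentiation programmes, had CHAPIR sites of 60 and 240 bases (leading site chr1:177447987-177448226, plus strand; fold 3.34, FDR 1.15e-06) under a single NC site of 1034 bases (fold 8.51, FDR 1e-25). Zbtb24, mutated in a human immunodeficiency with centromeric instability, had folds of 9.88 in the CHAPIR list (chr10:41451709-41451888, plus strand; FDR 0.00141) and 9.74 in the NC list (FDR 1.26e-12) at its shared coding sequence site. In these 3 genes the NC site was the longer one.

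Zbtb10 and Zbtb41 had larger FDRs in the CHAPIR list than most shared genes of the family. Zbtb10 had 1 CHAPIR site in the coding sequence (fold 3.86, FDR 0.00708) and 4 NC sites, led by one over the stop codon (fold 5.54, FDR 6.31e-11). Zbtb41 had peaks in separate coding exons, at a fold of 3.49 and an FDR of 0.000123 in the CHAPIR list and a fold of 4.02 and an FDR of 2.51e-05 in the NC list. Zbtb25 was the Zbtb gene of the CHAPIR list only, with a site of 119 bases at the end of the gene (chr12:76349018-76349136, minus strand; fold 6.59, FDR 0.00316).

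Zbtb14, a GC-rich DNA binding repressor, led the NC only genes. Its site over the stop codon had 457 bases (chr17:69388325-69388781, plus strand), a fold of 47.7 that was the highest of any member in the NC list, and an FDR of 1e-19. A second Zbtb14 site in the coding sequence had a fold of 2.92 and an FDR of 0.00437. Zbtb1, a gene of lymphocyte development, had 2 coding sequence sites, the leading one (chr12:76386588-76386917, plus strand) at a fold of 5.78 and an FDR of 8.51e-09. Zbtb17, which encodes the MYC partner MIZ1, had a site across a junction of coding exons (chr4:141463767-141464390, plus strand; 183 exonic bases, fold 3.75, FDR 1.82e-06).

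Zbtb12 had a 3′ UTR site (chr17:34896627-34896867, plus strand; fold 4.89, FDR 1.26e-07). Zbtb43 had a coding sequence site (chr2:33454057-33454540, minus strand; 484 bases, fold 8.05, FDR 1.74e-06). Zbtb8os, outside the BTB family, had a site over several exons (chr4:129336022-129346906, plus strand; 514 exonic bases, fold 3.36, FDR 2.82e-07). With Foxk1 and Foxk2 these 6 Zbtb symbols made up the 8 NC only genes that remained at equal list length. The other 5 Zbtb genes of the class (Zbtb2, Zbtb9, Zbtb42, Zbtb46 and Zbtb48) had folds of 7.51 to 14.5 with FDRs of 0.00148 to 0.00891, and none of them had a peak at an FDR at or under 1e-05.

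The NC only members were thus not all peaks of large FDR. Of their best peaks 8 of 15 (53.3%) had an FDR at or under 1e-05, against 33.5% of the 2081 NC only genes in all. Their median fold was 7.51, against 4.21. That median includes peaks of high fold and large FDR. Foxo6, Zbtb9, Zbtb42, Zbtb46 and Zbtb48 had folds of 11.8 to 14.5 with FDRs of 0.00148 to 0.00891. The members in both lists had best peaks with a median fold of 5.9 in the CHAPIR list and 5.71 in the NC list, with 21 of 27 (77.8%) at an FDR at or under 1e-05 in each. Over all shared genes the medians were 4.94 in the CHAPIR list and 4.27 in the NC list, with 72.0% and 80.3% at that FDR.

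Merging lines of a gene that share an exonic base gave 46 sites of members in the CHAPIR list and 73 in the NC list. Of the CHAPIR sites 32 (69.6%, 55.19 to 80.92%) overlapped an NC site by at least 1 exonic base on the same strand, and of the NC sites 31 (42.5%, 31.78 to 53.9%) overlapped a CHAPIR site, against 66.9% and 47.6% of the sites of all genes. Over genes in both lists, 72.7% of 44 CHAPIR sites and 56.4% of 55 NC sites of members were overlapped, below the 80.4% and 67.9% over all such genes; the CHAPIR interval of 58.15 to 83.65% and the NC interval of 43.27 to 68.63% include those shares. The Klf genes had 84.6% of 13 CHAPIR sites and 90.9% of 11 NC sites overlapped, the Fox genes 66.7% of 12 and 36.4% of 22, and the Zbtb genes 61.9% of 21 and 32.5% of 40. A common site was found in 25 of the 27 shared members (92.6%, against 90.6% of all shared genes), the exceptions being Foxj3 and Zbtb41.

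**Figure D3:**
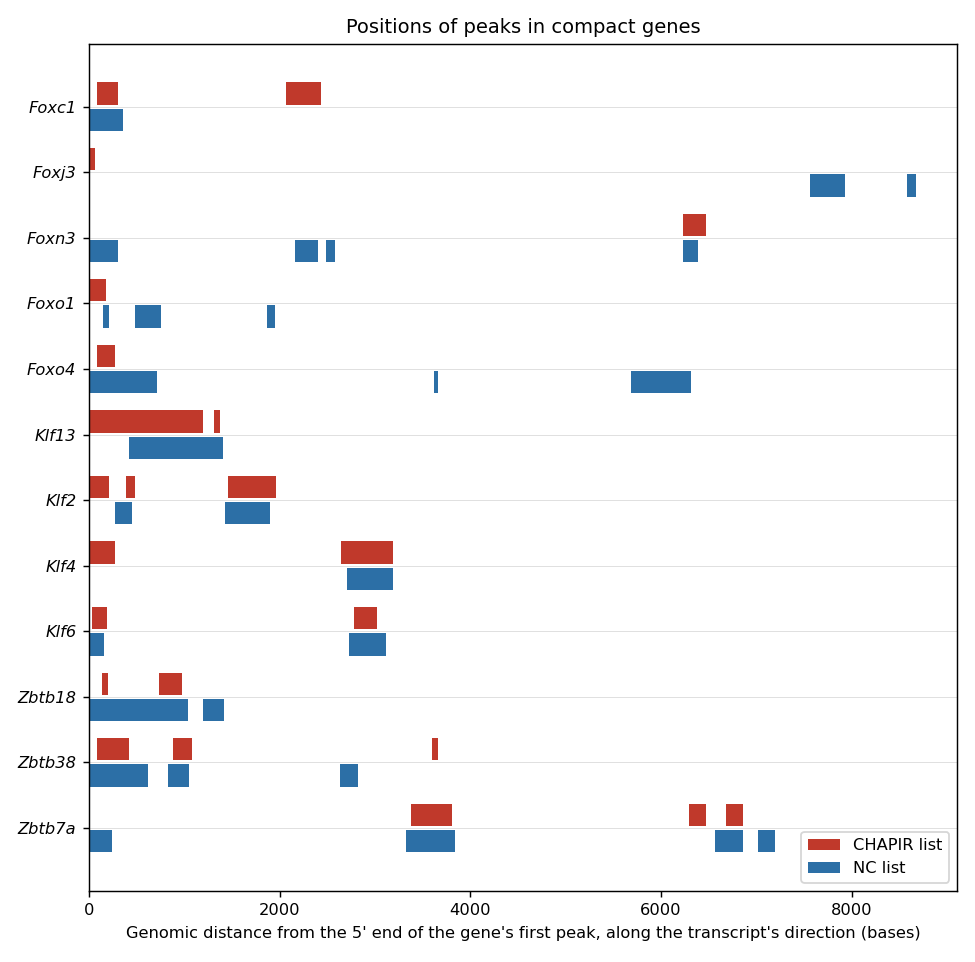
Positions of peaks in 12 genes with a peak in both lists, at least 3 sites in all and peaks within 10 kb, as genomic distance in bases from the 5′ end of the gene's first peak, with CHAPIR bars above NC bars for each gene. The leading CHAPIR bars of Foxo4, Zbtb18 and Zbtb38 lie over longer NC bars, and Foxj3 has no common position.

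The shared sites were compared in width over the 27 places where 1 site of each list overlapped only 1 of the other, in 22 genes. The CHAPIR site was narrower in 16, wider in 10 and equal in 1, with median widths of 239 bases in the CHAPIR list and 390 bases in the NC list. Narrower CHAPIR sites made up 59.3% of these, against 66.9% of 3722 such pairs over all genes, so narrower sites were seen over the lists as a whole. Within the families it was seen in 9 of 10 Zbtb pairs (median ratio of CHAPIR to NC width 0.669), 4 of 8 Fox pairs (0.936) and 3 of 9 Klf pairs (1.03), against a median ratio of 0.794 over all genes. Foxp2 (218 bases in the CHAPIR list and 61 in the NC list), Foxo1 (181 and 61) and Zbtb7b (389 and 180) had the largest ratios the other way.

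**Figure D4:**
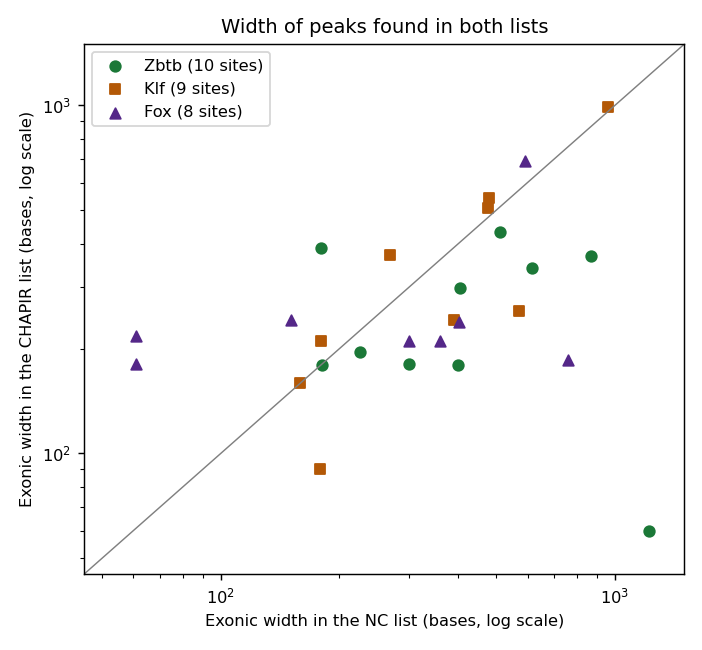
Exonic width in bases of shared sites in the CHAPIR list (vertical, log scale) against the NC list (horizontal, log scale), 1 point per pair of sites, by family; the line marks equal width. Of 10 Zbtb points 9 lie below the line, and the point farthest below it is Zbtb22, with 60 bases in the CHAPIR list and 1217 in the NC list.

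By transcript region, 32.9% (23.72 to 43.66%) of the members' 82 protein-coding lines in the CHAPIR list lay wholly in the coding sequence, and 45.8% (37.91 to 53.97%) of the 144 in the NC list, against 36.8% and 50.1% of all lines. The share wholly in the 3′ UTR was 30.5% (21.58 to 41.14%) in the CHAPIR list and 23.6% (17.42 to 31.18%) in the NC list, against 38.7% and 23.1%. Lines across the coding sequence and 3′ UTR were 32.9% in the CHAPIR list and 23.6% in the NC list, against 17.1% and 18.2%. The members' intervals for both lists overlap in each of the first 2 regions, and lines of 1 gene repeat over its transcripts and are not independent. Counted by distinct site, a count added after the values were seen, the coding sequence held 32.6% of 43 CHAPIR sites and 33.8% of 68 NC sites of members, against 29.7% and 43.4% of the sites of all genes. Each site took the region of its line of smallest FDR, and sites where that was labelled exon alone were left out. Some of those also had protein-coding lines, namely Foxn2 and Foxp2 in the CHAPIR list and Zbtb17, Zbtb41 and Zbtb48 in the NC list. The 3′ UTR held 39.5% of CHAPIR sites and 36.8% of NC sites, against 46.7% and 29.8%. Sites across the coding sequence and 3′ UTR were 20.9% in the CHAPIR list and 25.0% in the NC list, against 16.9% and 18.5%. For the members the differences between the lists in the coding sequence and in the 3′ UTR were thus smaller by site than by line, and that in sites across both turned round.

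**Figure D5:**
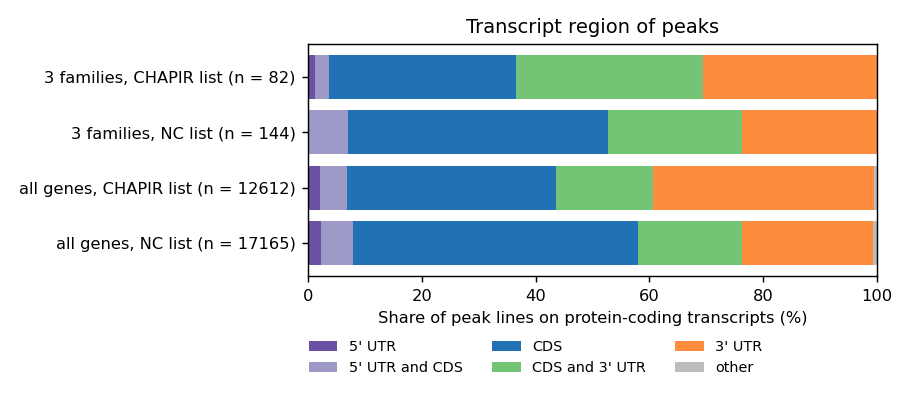
Share (%) of peak lines on protein-coding transcripts in each transcript region, for the 44 genes of the 3 families and for all genes, in the CHAPIR list and the NC list. The coding sequence part is 32.9% of the families' CHAPIR lines and 45.8% of their NC lines, beside 36.8% and 50.1% for all genes.

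The families differed in where their lines fell. Lines wholly in the coding sequence were 35.6% in the CHAPIR list and 54.3% in the NC list for Zbtb genes, 44.4% and 47.1% for Klf genes, and 15.8% and 21.2% for Fox genes. Fox genes had 36.8% of CHAPIR lines and 39.4% of NC lines wholly in the 3′ UTR. By site, the coding sequence held 38.1% of 21 CHAPIR sites and 43.2% of 37 NC sites for Zbtb genes, 33.3% of 12 and 36.4% of 11 for Klf genes, and 20% of 10 and 15.0% of 20 for Fox genes. The Fox sites wholly in the 3′ UTR were 40% in the CHAPIR list and 55.0% in the NC list. These are shares of few sites each, with the same sites left out as above. Gene by gene over the 27 shared members, a coding sequence peak was in both lists for 11, in the CHAPIR list only for 3 (Foxj3, Klf4 and Zbtb22) and in the NC list only for 5 (Foxo4, Klf6, Klf9, Zbtb20 and Zbtb7a), against 1107, 231 and 488 of all 3557 shared genes. A peak that lay wholly in the 3′ UTR was in both lists for 8, in the CHAPIR list only for 5 (Foxc1, Foxp2, Klf2, Klf7 and Zbtb4) and in the NC list only for 5 (Foxj3, Foxo1, Foxo4, Klf4 and Zbtb16). Over all shared genes the counts for the 3′ UTR were 1240, 607 and 208. These gene by gene counts compare region labels and not positions, so a peak counted for 1 list can overlap one of the other list. The CHAPIR 3′ UTR sites of Foxp2, Klf2 and Klf7 overlapped NC sites with another label. So did the CHAPIR coding sequence site of Zbtb22. The NC 3′ UTR site of Klf4 and NC coding sequence site of Klf6 likewise overlapped CHAPIR sites with another label. The NC coding sequence label of Foxo4 came from the site that held its CHAPIR site, labelled 5′ UTR and coding sequence.

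The partners of these factors were looked up from chosen lists. Of 17 corepressors and coactivators 14 had a peak, 11 of them in both lists, among them Ncor1, which encodes a corepressor that BTB proteins recruit, Cul3, Sin3a, Hdac1, Hdac2, Ep300 and Crebbp. The best Ncor1 peak, in the coding sequence, had a fold of 5.83 and an FDR of 7.94e-25 in the CHAPIR list and a fold of 8.15 and an FDR of 1e-74 in the NC list. Hdac3 was in the CHAPIR list only, and Bcor and Ctbp1 were in the NC list only. Of 16 regulators of FOXO activity 13 had a peak, 8 in both lists (among them Akt1, Pik3ca, Pik3r1, Sirt1, Usp7, Mdm2 and Insr), 2 in the CHAPIR list only (Akt2 and Irs1) and 3 in the NC list only (among them Sgk1 and Igf1r). The counts with a peak sit beside 27.8% of all protein-coding symbols. The class counts sit beside 53.5%, 15.3% and 31.3% of all genes with a peak.

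Of 18 known FOXO or KLF15 targets 12 had a peak. The counts here sit beside the same shares over all genes, 27.8% with a peak and 53.5%, 15.3% and 31.3% by class. Both lists held 7, namely the ubiquitin ligase genes Fbxo32 and Trim63, Pdk4, Cdkn1b, Sod2, Cat and Txnip. The CHAPIR list only held 3, the autophagy gene Map1lc3b (fold 8.79, FDR 1e-17), the glucose transporter gene Slc2a4 (fold 5.07, FDR 2.51e-15) and the branched-chain amino acid enzyme gene Bcat2 (fold 6.05, FDR 1e-13). The NC list only held 2, Gabarapl1 (fold 1.83, FDR 2.57e-10) and Prodh (fold 2.51, FDR 0.00324). Of 9 Sp factors, relatives of the Klf family, 3 had a peak and none was in both lists. Of 10 symbols of other BTB zinc finger genes, Hic1 and Zfp131 were in both lists and Patz1 and Gzf1 in the NC list only. The other 6 had no peak under these symbols, of which Zfp161 and Zfp295 are older names of Zbtb14 and Zbtb21.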

How the data were processed

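Per the labels' protocols, mRNA from heart was fragmented to 100 nucleotides, enriched with an antibody against m6A and sequenced beside its input; reads were trimmed with cutadapt, aligned with HISAT2 (version 2.1.0 and build GRCm38 per the submitters' processing notes) and called with exomePeak, separately per condition. Its options, threshold and use of strand are given in none of the sources used here, and replicates were not pooled, since each condition had 1 immunoprecipitated library. The authors deposited for each peak a fold, the ratio of its immunoprecipitated signal to input, with a p-value and an FDR. Depth is unknown, so no precision from depth can be given.

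Starts, which count from 0, were raised by 1. Lines of a gene on 1 strand sharing an exonic base were merged to a site, valued by its line of smallest FDR; overlap needed at least 1 exonic base on the same strand. Transcript regions are the authors', over protein-coding transcripts for lines. A site took the region of its line of smallest FDR, and was left out of the site shares where that was labelled exon alone. Shares carry 95% Wilson intervals (Python 3.11.15, pandas 2.3.3, numpy 2.4.6, scipy 1.17.1; figures with matplotlib 3.10.9). The merging and overlap steps were tested on simulated data. Sequences are RefSeq's (GRCm38.p6); peak sequences outside its promoter windows were not analysed here.

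The members, gene lists and marker lists were chosen with earlier results of these data known. Every member is named with its class; some genes of the related lists are not reported here. Full values are given, per family and class, for up to 6 members of smallest FDR (ties by higher fold), every CHAPIR only member and a chosen set of well-known genes; width pairs and the sequences shown were chosen after values were seen. Alternatives were lists of equal length, a minimum fold of 4, a maximum FDR of 1e-05, protein-coding lines, coding genes of the families, single-block peaks of at most 200 bases, distinct positions, 50% overlap, whole spans and strand ignored.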

Additional observations from a re-analysis of the deposited data

How the results depend on the processing

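Of the recomputed values 44 stayed within 1.5 times the count, or within the counting interval of the share, reported above, and 16 did not. Some of the 44 could not have moved and say nothing of robustness. The region shares already used protein-coding lines, and counting distinct positions cannot change a gene's class. The CHAPIR list was not cut at equal length, so its region shares stayed the same there. With lists of equal length, CHAPIR only members numbered 5 and NC only members 8, and 52.2% of CHAPIR sites were overlapped, where the NC list was shortened by construction. At an FDR at or under 1e-05, members in both lists numbered 17 and CHAPIR only members 4, and the share of lines wholly in the 3′ UTR was 20% in the CHAPIR list and 15.7% in the NC list. At a fold of at least 4, members in both lists numbered 16 (38.1%, against 36.6% of all genes) and CHAPIR only members 7 (16.7%, against 29.7%), the 3′ UTR share was 15.1% in the NC list, and 50% of CHAPIR sites were overlapped. Requiring 50% of both peaks left 43.5% of CHAPIR sites and 27.4% of NC sites overlapped. Single-block peaks of at most 200 bases had 38.9% of NC lines in the 3′ UTR. Among alternatives chosen after seeing the data, counting distinct sites gave 33.8% for the coding sequence and 36.8% for the 3′ UTR in the NC list, and restriction to genes in both lists changed none of these shares beyond its interval. The cause of these shifts was not tested. No paired analysis was possible because each condition had 1 library of each kind and no test was made. Depth, and with it the limit of detection of each list, is unknown.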

Other observations

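The authors' folds between 10 and 20 fell on a ladder in each list, a description made after the values were seen, with the step chosen as the best match. In the CHAPIR list 747 of 1081 such folds (69.1%) lay within 0.05 of a multiple of 0.52, where evenly spread folds would give 19.2%, and in the NC list 826 of 1100 (75.1%, against 18.6%) lay that close to a multiple of 0.5365. Member genes with such a fold were on the ladder for 6 of 8 genes in the CHAPIR list (Foxp2, Klf4, Klf7, Zbtb22, Zbtb38 and Zbtb4) and 6 of 7 in the NC list (Foxo6, Zbtb10, Zbtb42, Zbtb46, Zbtb48 and Zbtb9). Folds of 20 or more, which include the highest member fold of each list, were not looked at for the ladder. Whether these folds rest on few input reads was not tested.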
